A study of Mus musculus with 6 samples.

Results

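The mitochondrial protein import machinery is the set of translocases, chaperones and peptidases that carries nuclear-encoded proteins into mitochondria. Its genes were taken by name from a table of mouse transcript levels: rows whose symbol begins with Timm, Tomm, Grpel or Pmpc, together with Samm50, Pam16, Dnajc15, Dnajc19, Chchd4, Gfer, Mtx1, Mtx2, Oxa1l and Mipep. This rule, which reads symbols alone, gave 34 genes of 10041 rows, and all 34 passed the filter on low values. The levels come from RNA-seq of T cells cultured under conditions for Th17 cells, the helper T cells that make IL-17, and were deposited as FPKM, a level scaled to transcript length and library size. The cells of all 6 samples began as naive CD4 T cells and were kept for 48 h on a coat of 10 µg/ml anti-CD3e. Anti-CD28 was given at 1 µg/ml, with the cytokines IL-23 at 10 ng/ml, IL-6 at 20 ng/ml and TGF-β1 at 2.5 ng/ml. For 3 samples the vehicle DMSO was added and for 3 oligomycin (2.5 ng/ml), an inhibitor of the mitochondrial ATP synthase. The sources used here give no strain, age or genotype of the mice. Nothing says that the samples of a group came from separate animals or cultures, so p-values measure only the spread between these samples. Sample titles pair each DMSO sample with an oligomycin sample by a shared number. These numbers are on no column of the table, so the fit was unpaired.

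As background, nearly all mitochondrial proteins are made in the cytosol and pass the outer membrane through the TOM complex. Proteins with a cleavable presequence go on through the TIM23 channel, where the membrane potential acts on the presequence and an ATP-driven motor pulls the protein in, and lose the presequence to a matrix peptidase. Other routes lead to the SAM complex for β-barrels, to the small TIM chaperones and the TIM22 complex for carrier proteins, and to the Chchd4 and Gfer disulfide relay for cysteine-rich proteins of the intermembrane space.

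FPKM summed to between 1434028 and 2103404 per library, mostly from small RNA rows, and the sequencing depth is unknown. Library medians ran from 13.8 to 14.7 FPKM. All 7 T cell markers looked for (such as Cd3e and Cd4) were in the table, of which Thy1 and Cd28 fell with oligomycin (log2 changes -0.97 and -0.53, adjusted p = 0.0293 and 0.0422). The Th17 markers Il17a, Il17f, Il23r and Ccr6 fell with oligomycin, with means lower by between 4.87-fold for Ccr6 and 19.6-fold for Il17a, and Batf was not called. The part of these differences in the results on import genes was not tested. Of the 5 B cell and the 3 NK cell markers 0 were in the table. Of 2 CD8 T cell markers only Cd8b1 was present, at 2.41 to 3.30 FPKM. Of 5 markers of macrophages and dendritic cells only Cd68 was present, at 1.15, 1.08 and 2.07 FPKM with DMSO and 2.45, 5.07 and 2.39 with oligomycin, and its part in the results below was not tested. Since FPKM are relative levels, fewer cells of a type and less RNA per cell cannot be told apart.

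Of the 34 import genes, 3 passed the test between cultures grown with oligomycin and with DMSO. That count, like the share of all genes called, changed whenever 1 library was left out. Pam16, a subunit of the import motor, and Pmpca, a subunit of the presequence peptidase, fell, while Grpel2, a nucleotide exchange factor of the motor's Hsp70, rose. The fitted log2 change, oligomycin minus DMSO on log2(FPKM + 1), ran from -0.97 to 0.39 over the 34 genes, with a median of -0.15, against -0.0044 over all 9986 genes tested. After quantile normalization the median was -0.045, which is -0.073 relative to that of all genes, with 19 of 34 changes negative in place of 26. The log2(FPKM + 1) scale understates the change of genes with low FPKM.

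A gene was called where the adjusted p of limma's moderated test, adjusted over all genes tested, lay under 0.05. The 3 calls make 8.82% of the import genes, against 30.2% of all genes tested. Without oligomycin replicate 1 the calls numbered 10 of 34, against 32.8% of all genes tested, and without DMSO replicate 1 or 3 they numbered 0, against 19.1% and 17.9%. The 2 lower calls stand against 16.1% of all genes tested called lower, and the 1 higher call against 14% called higher. At an unadjusted p under 0.05 the counts were 8 of the 34 genes (23.5%) and 42.8% of all genes tested. In 7 import genes every oligomycin library lay below every DMSO library, and this held for 24.3% of all genes tested. In 2 import genes, Grpel2 and Dnajc19, every oligomycin library lay above every DMSO library, against 23.1% of all genes tested. These are shares of 34 genes of related function in the same 6 libraries, and they carry no test.

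The import genes were expressed at a median of 45.5 FPKM in the DMSO libraries, against 14.5 for all genes tested. The precision of the fit was similar, with a median SE of 0.14 for the import genes and 0.15 for all genes tested. Of the 34 import genes, 0 had a fitted change of 1 or more in either direction, compared with 8.87% of all genes tested. This count depends on the pseudocount of 1. The change of Pam16, -0.97 in this fit, was -1.39 with a pseudocount of 0.1 and -0.44 with a pseudocount of 5. For 32 of the 34 the 95% interval of the change lay wholly between -1 and 1, compared with 77.2% of all genes tested. The exceptions were Pam16 and Timm8a1, both expressed at low levels.

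**Figure D1:**
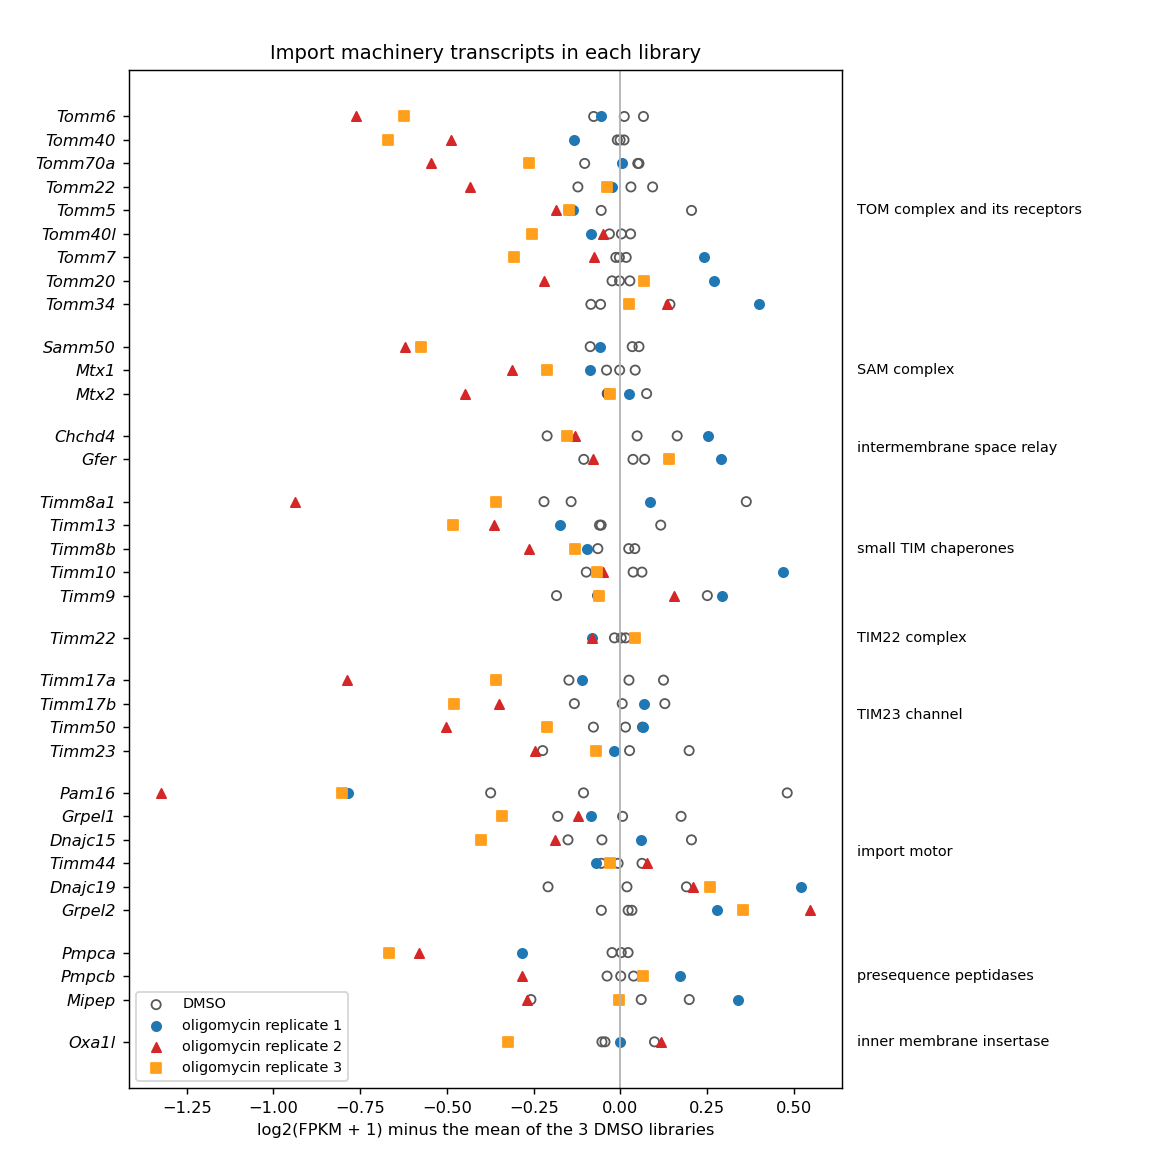
Level of each of the 34 import genes in every library, as log2(FPKM + 1) minus the mean of the 3 DMSO libraries, with genes grouped by role on the vertical axis. Open circles are DMSO libraries and filled symbols the 3 oligomycin libraries. Replicates 2 and 3 with oligomycin lie left of the DMSO points for 24 and 18 of the 34 genes, and replicate 1 for 9. The same shares over all genes tested were not computed.

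The 9 Tomm genes, grouped by symbol, cover the translocase of the outer membrane (TOM), its receptors and the cytosolic co-chaperone Tomm34, and 0 were called. Fitted changes were negative for 7 of the 9 and for 4 of the 9 after quantile normalization, with medians of -0.16 and 0.013. Tomm40 (XLOC_018743, chromosome 7, 19701313 to 19715429, GRCm38) encodes the β-barrel pore. Its levels were 118, 119 and 117 FPKM with DMSO and 108, 83.9 and 73.9 with oligomycin. Every oligomycin library lay below the DMSO libraries, which spanned a narrow range, and replicates 2 and 3 lay far lower than replicate 1. The fitted log2 change was -0.43 (SE 0.15, 95% interval -0.77 to -0.09, adjusted p = 0.0578).

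Tomm6 (XLOC_009132, chromosome 17, 47686645 to 47691092, GRCm38) is a small subunit that helps to assemble the pore. It stood at 65.6, 63.1 and 59.3 FPKM with DMSO and at 60.2, 36.5 and 40.3 with oligomycin. Replicate 1 with oligomycin lay within the DMSO range and the other two oligomycin libraries below it, so the groups overlapped (log2 change -0.48, SE 0.18, adjusted p = 0.0742). Tomm70a, a receptor for carrier proteins that binds cytosolic Hsp70 and Hsp90, gave 86.4, 77.6 and 86.7 FPKM with DMSO and 83.7, 56.9 and 69.4 with oligomycin. Again replicate 1 with oligomycin lay among the DMSO libraries and replicates 2 and 3 below them (log2 change -0.27, adjusted p = 0.211). In the fit without oligomycin replicate 1, Tomm40, Tomm6 and Tomm70a passed the threshold (adjusted p = 0.00815, 0.00423 and 0.0484), while 32.8% of all genes tested were called.

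Tomm22, the central receptor that ties the pores together, was among the most abundant of the import transcripts, at 123, 110.3 and 128 FPKM with DMSO and 118, 88.7 and 117 with oligomycin. Replicate 2 alone lay outside the DMSO range (log2 change -0.17, adjusted p = 0.410). Tomm7, a small subunit, had the highest level per length of all 34 genes, at 156, 158 and 155 FPKM with DMSO. With oligomycin its values spread to both sides of these, at 185, 148 and 126 FPKM (log2 change -0.05, adjusted p = 0.828). Its row covers a locus of 373488 bases that 5 other rows share, so its level is uncertain.

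Tomm5, another small subunit, measured 88.1, 106 and 82.5 FPKM with DMSO and 83.3, 80.4 and 82.6 with oligomycin, and the groups overlapped (adjusted p = 0.366). Tomm20, the receptor for presequences, measured 17.5, 17.1 and 16.9 FPKM with DMSO and 20.9, 14.6 and 18.1 with oligomycin. Its oligomycin libraries lay on both sides of the narrow DMSO range (log2 change 0.04, adjusted p = 0.848). Tomm34, a cytosolic co-chaperone that takes part in import, was at 21.2, 20.8 and 24.5 and 29.5, 24.4 and 22.5 FPKM, with overlapping groups (adjusted p = 0.320). Tomm40l, a paralog of the pore gene, was far lower than Tomm40 per length, at 17.2, 17.6 and 17.9 FPKM with DMSO. With oligomycin it was at 16.5, 16.9 and 14.6 FPKM, below all DMSO libraries by a small margin (log2 change -0.13, adjusted p = 0.390).

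The sorting and assembly machinery (SAM), which inserts β-barrel proteins such as Tomm40 into the outer membrane, had 3 genes with negative changes, under quantile normalization and under scaling without small RNA rows too, and 0 called. Samm50 (XLOC_006840, chromosome 15, 84192233 to 84214303, GRCm38) encodes the central β-barrel of the complex. It was at 59.8, 54.2 and 59.0 FPKM with DMSO and 55.2, 37.1 and 38.4 with oligomycin. As with Tomm6, replicate 1 lay among the DMSO libraries and the other two oligomycin libraries well below them (log2 change -0.42, SE 0.16, 95% interval -0.78 to -0.05, adjusted p = 0.0804). Without oligomycin replicate 1 it passed the threshold (adjusted p = 0.00666).

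Mtx1 and Mtx2 encode the metaxins, the partners of Samm50 on the cytosolic side. Mtx1 was at 25.8, 24.3 and 25.0 FPKM with DMSO and 23.5, 20.0 and 21.5 with oligomycin, so that the groups did not overlap (log2 change -0.20, adjusted p = 0.188). Mtx2 was at 50.6, 46.7 and 46.7 and 48.8, 34.9 and 46.9 FPKM, where only replicate 2 with oligomycin lay apart from the rest (log2 change -0.15, adjusted p = 0.448).

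In the intermembrane space, Chchd4 encodes the oxidoreductase that folds incoming proteins by disulfide exchange and Gfer the sulfhydryl oxidase that reoxidizes it. Chchd4 measured 41.5, 54.1 and 49.8 FPKM with DMSO and 57.6, 43.9 and 43.2 with oligomycin (log2 change -0.011, 95% interval -0.36 to 0.34, adjusted p = 0.961). Gfer measured 31.8, 35.1 and 36.0 and 42.1, 32.4 and 37.8 FPKM (log2 change 0.12, 95% interval -0.17 to 0.41, adjusted p = 0.506). For both genes the groups overlapped and oligomycin replicate 1 was the highest library.

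The small TIM chaperones guide hydrophobic precursors across the intermembrane space, and 0 of their 5 genes were called. Fitted changes were negative for 3 of the 5, and for 2 of the 5 after quantile normalization. Timm13 (XLOC_002117, chromosome 10, 80879816 to 80900969, GRCm38), which pairs with Timm8 proteins, was at 90.1, 102 and 90.4 FPKM with DMSO and 83.1, 72.8 and 67.0 with oligomycin. All oligomycin libraries lay below all DMSO libraries (log2 change -0.34, SE 0.12, 95% interval -0.62 to -0.06, adjusted p = 0.0698), and without oligomycin replicate 1 the gene passed the threshold (adjusted p = 0.0294). Timm8b, one of its partners, was at 94.4, 87.6 and 93.3 and 85.7, 76.2 and 83.6 FPKM, likewise without overlap but with a smaller difference (log2 change -0.16, adjusted p = 0.284). Timm8a1, the homolog of the human deafness-dystonia gene TIMM8A, was expressed at low levels, 5.39, 5.05 and 8.06 FPKM with DMSO and 6.47, 2.68 and 4.50 with oligomycin. Its libraries scattered widely within both groups (log2 change -0.40, 95% interval -1.01 to 0.20, adjusted p = 0.275).

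Timm9 and Timm10 form the other, essential hexamer of this family. Timm9 was at 23.9, 26.1 and 32.7 FPKM with DMSO and 33.7, 30.5 and 26.2 with oligomycin (log2 change 0.13, adjusted p = 0.534). Timm10 was at 43.4, 48.6 and 47.8 and 64.8, 44.9 and 44.4 FPKM (log2 change 0.12, adjusted p = 0.599). Oligomycin replicate 1 was the highest library for both, and the groups overlapped. Timm22, the pore that inserts carrier proteins into the inner membrane, varied little at all, at 13.7, 13.5 and 13.9 FPKM with DMSO and 12.9, 12.9 and 14.2 with oligomycin (log2 change -0.04, 95% interval -0.28 to 0.20, adjusted p = 0.791).

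The TIM23 channel, the inner membrane gate for presequence proteins, had 4 genes with negative changes (median -0.24), also under quantile normalization and under scaling without small RNA rows (medians -0.20 and -0.12), and 0 called. Timm17a (XLOC_001022, chromosome 1, 135301535 to 135313737, GRCm38), a channel subunit whose protein is short-lived under stress, was at 88.9, 78.8 and 95.3 FPKM with DMSO and 80.9, 50.2 and 67.9 with oligomycin. Replicate 1 lay within the DMSO range and replicates 2 and 3 below it (log2 change -0.42, SE 0.18, adjusted p = 0.105). Timm17b, its paralog, was lower per length, at 19.6, 21.5 and 17.8 and 20.5, 15.1 and 13.8 FPKM, with the same division among the oligomycin libraries (log2 change -0.25, adjusted p = 0.253). Without oligomycin replicate 1 both passed the threshold (Timm17a adjusted p = 0.0288, Timm17b adjusted p = 0.0445).

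Timm50, the receptor that takes over precursors from the TOM complex, was at 96.6, 90.5 and 99.9 FPKM with DMSO and 99.95, 67.2 and 82.5 with oligomycin. Replicate 1 was level with the highest DMSO library and replicate 2 was the lowest of all 6 (log2 change -0.22, adjusted p = 0.311). Timm23, the channel protein itself, was listed at only 4.39, 3.53 and 5.07 FPKM with DMSO and 4.23, 3.46 and 4.04 with oligomycin, with overlapping groups (log2 change -0.11, adjusted p = 0.605). Its level is uncertain, because its reference transcript matches that of the gene Gm10273 at 99.91% over 1121 of 1173 bases, and 5 pseudogene transcripts in part.

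**Figure D2:**
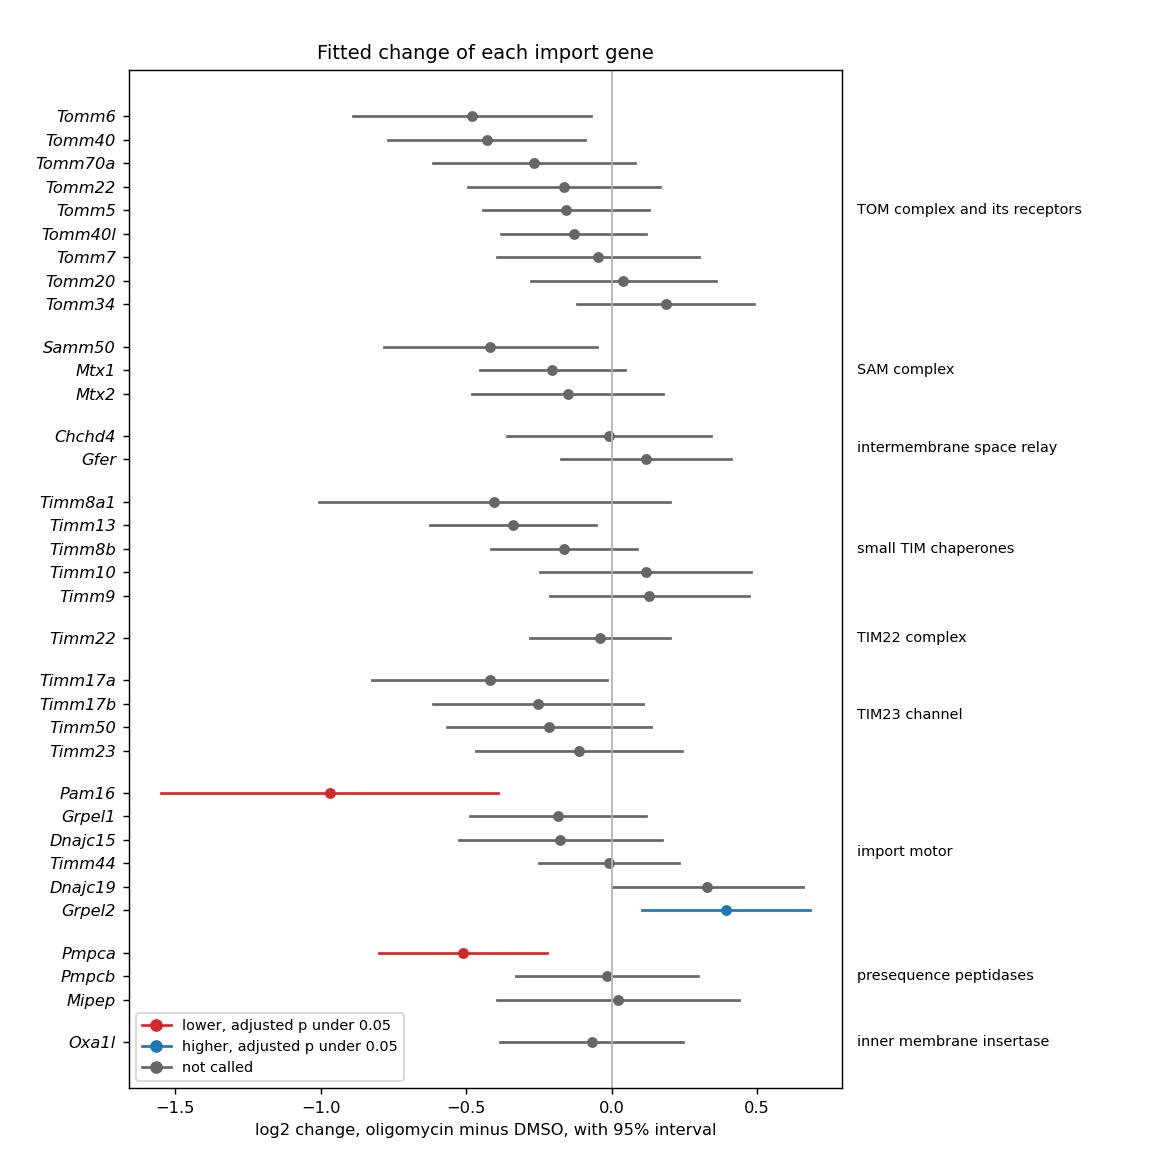
Fitted log2 change of each import gene, oligomycin minus DMSO on log2(FPKM + 1), with its 95% interval from limma (n = 3 per group). Red marks genes called lower, blue genes called higher and grey genes not called. Pam16 and Pmpca lie to the left of 0 and Grpel2 to the right with an adjusted p under 0.05.

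The import motor on the matrix side of the channel, which pulls precursors in with the Hsp70 protein Hspa9, held 2 of the 3 called genes, in opposite directions. Pam16 (XLOC_007789, chromosome 16, 4616466 to 4624946, GRCm38), the J-like protein that restrains the motor's J-protein, was the least abundant of the 34 genes in DMSO cultures. Its levels were 3.11, 2.42 and 5.18 FPKM with DMSO and 1.57, 0.769 and 1.54 with oligomycin. All oligomycin libraries lay below all DMSO libraries, and replicate 2 was the lowest. The mean fell from 3.57 ± 1.44 to 1.29 ± 0.454 FPKM (SD, n = 3 in each group), 2.76-fold lower, and the log2 change was -0.97 (SE 0.25, 95% interval -1.55 to -0.39, adjusted p = 0.0216). The call was lost when replicate 1 or 3 with DMSO or replicate 2 with oligomycin was left out (adjusted p = 0.0520, 0.0786 and 0.0515). Over all fits without 1 library the log2 change of Pam16 ran from -1.16 to -0.73. The Pam16 transcript is identical over 534 of its 596 bases to that of Gm9803, so reads of the pair may not be separable.

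Grpel2 (XLOC_009742, chromosome 18, 61712424 to 61726331, GRCm38), one of the pair of GrpE-like exchange factors that release ADP from the motor Hsp70, was at 5.02, 5.40 and 5.35 FPKM with DMSO and 6.59, 8.13 and 6.99 with oligomycin. Every oligomycin library was above every DMSO library, and replicate 2 was the highest. Its mean was 1.38-fold higher, at 5.26 ± 0.206 FPKM (SD, n = 3) against 7.24 ± 0.803 (n = 3), with a log2 change of 0.39 (SE 0.13, 95% interval 0.10 to 0.68, adjusted p = 0.0466). The call was lost when any library other than oligomycin replicate 1 was left out (adjusted p from 0.0936 to 0.130). Over all fits without 1 library the log2 change of Grpel2 ran from 0.32 to 0.45. Grpel1, the more abundant paralog per length, was at 28.6, 36.9 and 32.7 FPKM with DMSO and 30.7, 29.9 and 25.5 with oligomycin, with overlapping groups (log2 change -0.18, adjusted p = 0.319).

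The J-proteins that stimulate the motor are encoded by Dnajc19 and Dnajc15. Dnajc19 (XLOC_013140, chromosome 3, 34020079 to 34081326, GRCm38) measured 13.6, 10.0 and 11.9 FPKM with DMSO and 17.3, 13.7 and 14.3 with oligomycin. The oligomycin libraries all lay above the DMSO libraries, the closest by a small margin (log2 change 0.33, SE 0.14, 95% interval -0.00081 to 0.66, adjusted p = 0.118). After scaling to the FPKM sum without small RNA rows it passed the threshold (adjusted p = 0.0488). Dnajc15, present at higher levels per length, measured 71.0, 59.2 and 55.3 FPKM with DMSO and 64.2, 53.9 and 46.3 with oligomycin, and these overlapped (log2 change -0.18, adjusted p = 0.404). Timm44, which anchors the motor to the channel, hardly differed between the groups, at 44.2, 46.5 and 42.8 and 42.3, 46.9 and 43.5 FPKM (log2 change -0.0087, 95% interval -0.25 to 0.23).

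The presequence peptidases cut targeting signals from imported proteins. Pmpca and Pmpcb encode the α and β subunits of the matrix processing peptidase, which works as a heterodimer, and Mipep an intermediate peptidase that removes a further octapeptide. Pmpca (XLOC_010698, chromosome 2, 26389348 to 26409188, GRCm38) was at 55.1, 55.8 and 54.1 FPKM with DMSO and 45.0, 36.4 and 34.2 with oligomycin. The DMSO libraries lay close together and all oligomycin libraries below them, replicate 1 nearest. The mean fell from 55.0 ± 0.901 FPKM (SD, n = 3) to 38.5 ± 5.68 (n = 3), 1.43-fold lower, and the log2 change was -0.51 (SE 0.13, 95% interval -0.80 to -0.22, adjusted p = 0.0178). The call was lost without any 1 of the DMSO libraries and without replicate 3 with oligomycin (adjusted p = 0.0575, 0.0564, 0.0592 and 0.0644). Over all fits without 1 library the log2 change of Pmpca ran from -0.62 to -0.43.

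Pmpcb (XLOC_015079, chromosome 5, 21737160 to 21757152, GRCm38) was at 58.0, 55.0 and 56.5 FPKM with DMSO, levels near those of Pmpca per length, and at 63.7, 46.2 and 59.1 with oligomycin. Its oligomycin libraries lay on both sides of the DMSO libraries (log2 change -0.02, 95% interval -0.33 to 0.30, adjusted p = 0.938). Mipep was at 15.1, 10.7 and 13.6 and 16.8, 10.6 and 13.0 FPKM, with overlapping groups (log2 change 0.02, adjusted p = 0.933). The row of Pmpca shares its locus with the row of the neighbouring gene Inpp5e, and the reference transcripts of both overlap over 874 bases. Inpp5e itself had a log2 change of 0.14 (adjusted p = 0.63). Oxa1l, the insertase that places proteins into the inner membrane from the matrix, was at 18.0, 20.1 and 18.1 FPKM with DMSO and 18.7, 20.4 and 14.7 with oligomycin, and replicate 3 alone lay below the DMSO range (log2 change -0.07, adjusted p = 0.724).

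The proximal promoters of the peptidase subunits and of Pam16 are shown because Pmpca and Pam16 fell while Pmpcb, whose product works in the same dimer as that of Pmpca, had an interval that spans 0. Each runs from 250 bases before to 50 after the start site in RefSeq (GRCm38.p6), from 5′ to 3′ on the strand of the gene. Capitals mark the Ets motif CCGGAA in the promoters of Pmpca (chr2:26389098-26389397, plus strand) and Pmpcb (chr5:21736910-21737209, plus strand), and the NRF-1 motif GCGCANGC in that of Pam16 (chr16:4624897-4625196, minus strand).
Pmpca: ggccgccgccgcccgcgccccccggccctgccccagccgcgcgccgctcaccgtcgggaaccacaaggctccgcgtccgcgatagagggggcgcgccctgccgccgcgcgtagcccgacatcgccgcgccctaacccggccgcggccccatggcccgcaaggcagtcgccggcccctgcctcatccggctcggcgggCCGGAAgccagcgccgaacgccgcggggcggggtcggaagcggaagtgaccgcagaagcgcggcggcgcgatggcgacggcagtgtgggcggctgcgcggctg
Pmpcb: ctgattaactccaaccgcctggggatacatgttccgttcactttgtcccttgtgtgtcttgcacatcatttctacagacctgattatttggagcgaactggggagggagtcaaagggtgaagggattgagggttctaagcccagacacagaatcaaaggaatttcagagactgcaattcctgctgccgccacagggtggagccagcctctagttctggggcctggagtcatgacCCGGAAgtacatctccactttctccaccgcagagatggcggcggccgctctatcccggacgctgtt
Pam16: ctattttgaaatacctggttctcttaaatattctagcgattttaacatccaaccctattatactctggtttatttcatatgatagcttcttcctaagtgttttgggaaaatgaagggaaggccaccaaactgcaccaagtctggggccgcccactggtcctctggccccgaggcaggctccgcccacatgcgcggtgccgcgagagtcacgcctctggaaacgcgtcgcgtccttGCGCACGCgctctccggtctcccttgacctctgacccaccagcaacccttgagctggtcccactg
The Pmpca promoter holds 80.3% G and C, the highest of the import genes, and the promoters of Pmpcb and Pam16 hold 53.7% and 54.0%. It holds 55 CpG dinucleotides, against 11 in that of Pmpcb and 17 in that of Pam16.

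Promoters were found in RefSeq for 31 of the 34 genes, all but Tomm7, Tomm40l and Grpel2. Their median G and C content was 58% (46% to 80.3%), against 61.3% over the 7104 tested genes with a promoter. Motifs were searched on both strands by their letters, and a match is not a site of binding. The Ets motif CCGGAA occurred in 13 of 31 promoters (41.9%, against 35.3% of the tested genes) and the NRF-1 motif GCGCANGC in 7 (22.6% against 24.9%). The E-box CACGTG occurred in 4 (12.9% against 12.7%), CCAAT in 10 (32.3% against 44.1%) and the ATF4 motif TGATGNAA in 0 (against 2.65%). The letters of CCGGAA and of the other motifs do not overlap in the promoters shown, where 1 match stands in each.

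Of the 31 genes, 10 (32.3%) have a start site within 1000 bases of that of a gene running the other way, against 21.7% of the tested genes. For 6 of these the neighbour was tested, and its change had the sign of the import gene for 3 and the other sign for 3. The start of Pmpca lies 32 bases from that of Entr1, whose log2 change was -0.12 (adjusted p = 0.47), while Pmpca fell by 0.51. The start of Timm8b lies 52 bases from that of Sdhd, which encodes a subunit of respiratory complex II. Sdhd fell by 0.67 (adjusted p = 0.0177), and Timm8b had a change of -0.16 that did not pass the threshold. The starts of Timm17b and Pqbp1 lie 67 bases apart, with changes of -0.25 and -0.24, neither called. The other three pairs had opposite signs and no call: Chchd4 (-0.011) and Tmem43 (0.29, adjusted p = 0.0646), Timm23 (-0.11) and Parg (0.13), and Timm9 (0.13) and 2700049A03Rik (-0.13).

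Across the libraries, the import genes differed within the oligomycin group as well as between the groups. Relative to each gene's mean over the 6 libraries, their mean log2 level was 0.07, 0.04 and 0.11 in the DMSO libraries and 0.12, -0.20 and -0.14 in oligomycin replicates 1, 2 and 3. Replicate 1 with oligomycin thus stood just above the highest DMSO library, and replicates 2 and 3 below all DMSO libraries. Over all genes tested the same means were -0.02, 0.05 and 0.01 with DMSO and -0.0037, 0.0062 and -0.05 with oligomycin.

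Oligomycin replicate 2 was the lowest of the 6 libraries for 17 of 34 import genes (50%), against 23.3% of all genes tested, and replicate 3 for 9 (26.5% against 19.5%). Oligomycin replicate 1 was the lowest for 1 gene (2.94% against 10.4%) and the highest for 11, against 17.2% of all genes tested. Replicate 1 lay below all DMSO libraries for 9 genes, within their range for 13 and above it for 12. Replicate 2 lay below for 24 genes and above for 4, and replicate 3 below for 18 and above for 6. How often single oligomycin libraries lay outside the DMSO range over all genes tested was not computed. The TIM23 channel genes had the widest division among the larger roles, with a mean relative level of 0.13 in replicate 1, -0.35 in replicate 2 and -0.15 in replicate 3. Close behind were the presequence peptidases (0.16, -0.29 and -0.12), SAM (0.09, -0.33 and -0.14) and the small TIM chaperones (0.18, -0.23 and -0.15). The motor genes had the narrowest division, with 0.04, -0.08 and -0.11.

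Leaving out a library changed the count of calls. Without oligomycin replicate 1, 9 import genes were called lower (Pam16, Pmpca, Samm50, Timm13, Timm17a, Timm17b, Tomm40, Tomm6 and Tomm70a) and Grpel2 higher, 10 of 34 where 32.8% of all genes tested were called. Without oligomycin replicate 2 the only import gene called was Pmpca, and without replicate 3 it was Pam16, against 24.5% and 20.7% of all genes tested. Without DMSO replicate 2 it was again Pam16, against 20.5%. Without DMSO replicate 1 or 3, 0 were called, while 19.1% and 17.9% of all genes tested were called.

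**Figure D3:**
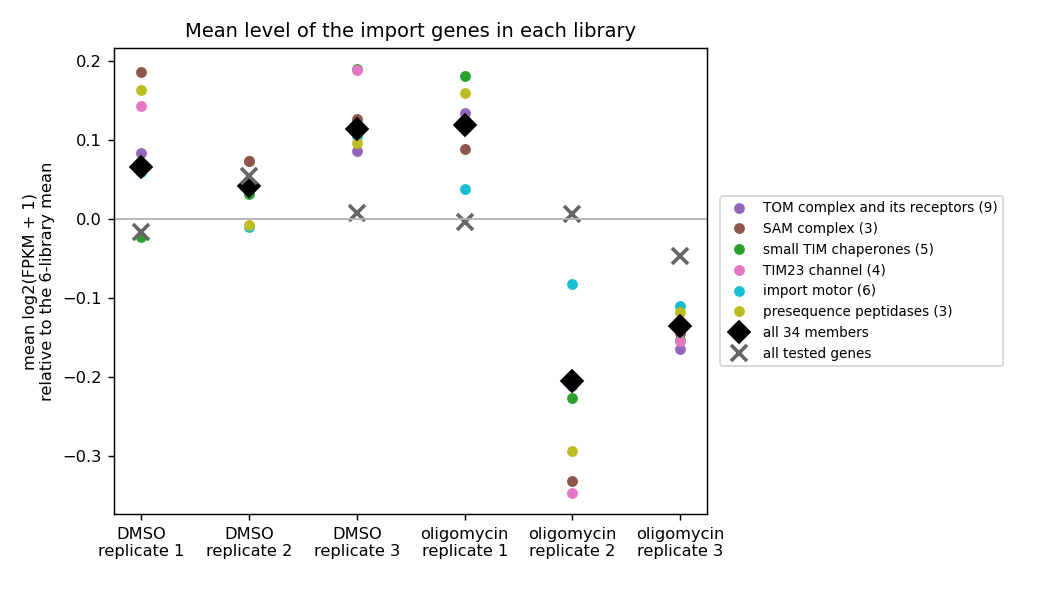
Mean log2(FPKM + 1) of the import genes in each library relative to the mean of the 6 libraries, for all 34 genes (diamonds), for the roles with 3 or more genes (coloured points, number of genes in the key) and for all genes tested (crosses). Oligomycin replicate 1 lies at 0.12, just above the highest DMSO library, and replicates 2 and 3 lie at -0.20 and -0.14.

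Within a library, the ratio of a pair of partners or paralogs is the same whatever single factor scales the library. For 9 such pairs, chosen after the values were seen, the FPKM ratios were computed in each library. An exact permutation test gave p = 0.1 for each pair whose groups did not overlap. With 3 libraries per group it cannot give a smaller p, so it decides nothing here. The ratio of Pmpca to Pmpcb was 0.950, 1.02 and 0.957 with DMSO and 0.706, 0.788 and 0.579 with oligomycin. It was near 1 in all DMSO libraries and lower in all oligomycin libraries, replicate 1 included. The ratio of Grpel2 to Grpel1 was 0.175, 0.146 and 0.163 with DMSO and 0.215, 0.272 and 0.274 with oligomycin, higher in all oligomycin libraries.

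The ratio of the motor J-protein genes Dnajc15 to Dnajc19 was 5.24, 5.90 and 4.63 with DMSO and 3.71, 3.92 and 3.25 with oligomycin, with all oligomycin libraries lower. The ratio of Tomm40 to Tomm40l was 6.88, 6.76 and 6.54 with DMSO and 6.52, 4.96 and 5.08 with oligomycin, where oligomycin replicate 1 lay just under the DMSO libraries. For the other 5 pairs (Timm17a and Timm17b, Mtx1 and Mtx2, Timm9 and Timm10, Timm8b and Timm13, Chchd4 and Gfer) the groups overlapped. The levels of single genes did not overlap for 24.3% (below) and 23.1% (above) of all genes tested, and the same share over other ratios was not computed.

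**Figure D4:**
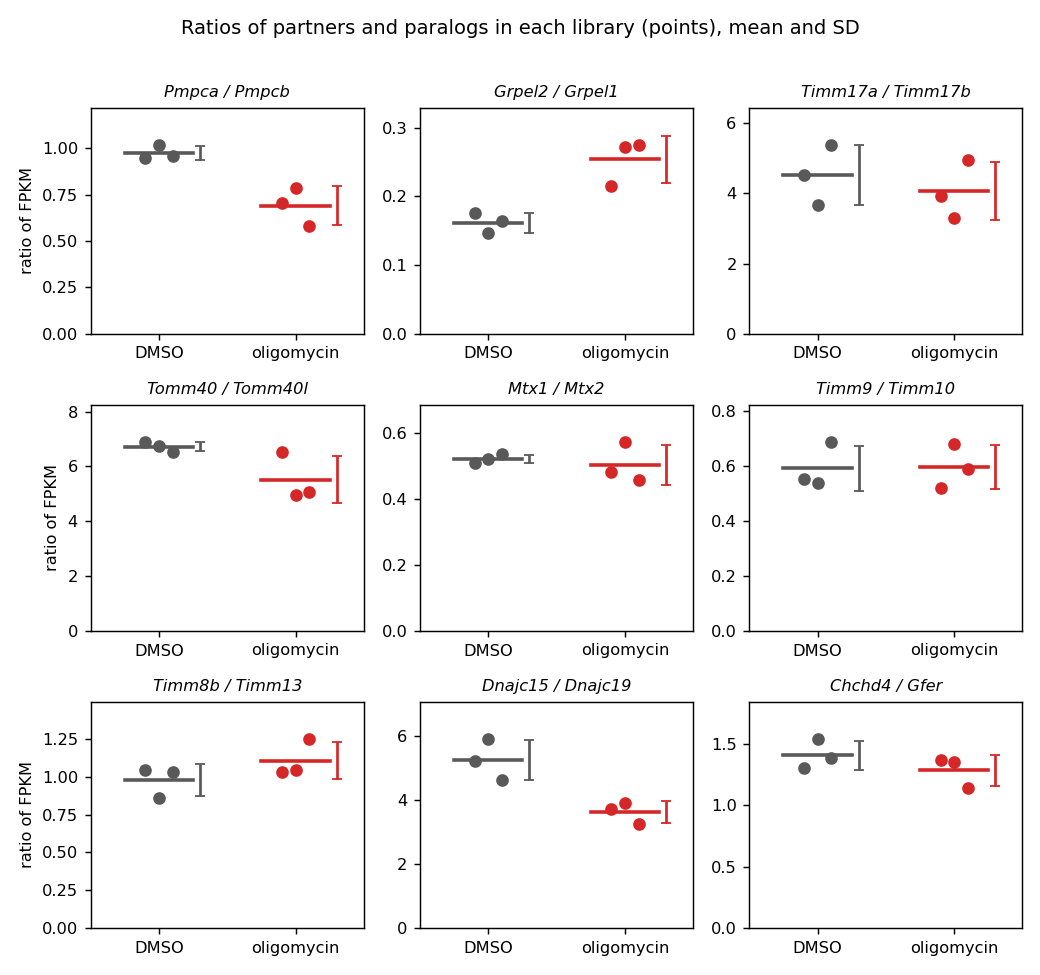
FPKM ratios of 9 pairs of import genes in each library (points), with the mean (line) and SD (bar, n = 3) of the DMSO and the oligomycin group, each axis starting at 0. The groups do not overlap for Pmpca/Pmpcb, Grpel2/Grpel1, Tomm40/Tomm40l and Dnajc15/Dnajc19.

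Reference transcripts of 14 of the 34 genes match a transcript of another gene at 95% or more over at least 200 bases, and 5 genes share their exact locus with another row of the table. Besides Pam16, Timm23, Pmpca and Tomm7, these include Grpel2, with a pseudogene match of 97.78% over 677 bases, Dnajc19, whose row shares its locus with Fxr1, and Tomm6, which overlaps Gm21981 and an antisense gene. Grpel1 also shares its locus, with Tada2b, and their transcripts match at 100% over 411 bases. Tomm40l matches a transcript of Nr1i3 at 100% over 2119 bases, and Tomm40 the antisense gene Gm20512 over 258 bases. How reads with several matches and reads of overlapping genes were assigned is not stated in the labels, so the levels of these genes are uncertain. Each pair whose ratios did not overlap between the groups holds such a gene. So do the overlapping pairs of Timm17a and Timm17b, of Timm8b and Timm13, and of Chchd4 and Gfer. The pairs of Mtx1 and Mtx2 and of Timm9 and Timm10 do not.

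Import genes listed under older names lie outside the rule. They were Fxc1 (now Timm10b), 1810026J23Rik (Timm29), 1700034H14Rik (Timm21) and 4930455C21Rik (Timmdc1). Their log2 changes were -0.07, 0.05, -0.09 and -0.08, and 0 of the 4 were called.

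Genes that act beside the import machinery were read from lists of known partners. Of 9 genes of matrix folding and processing, 2 rose, 0 fell and 7 were not called (against 30.2% called of all genes tested). Dnaja3, a matrix J-protein, rose from 36.0 ± 2.62 to 45.3 ± 0.532 FPKM (SD, n = 3 each, log2 change 0.32, adjusted p = 0.0487). Immp2l, a subunit of an inner membrane peptidase, rose from 1.60 ± 0.906 to 3.85 ± 1.23 FPKM (log2 change 0.92, adjusted p = 0.0363). The motor Hsp70 gene Hspa9 was not called, at 232, 229 and 238 FPKM with DMSO and 311, 229 and 245 with oligomycin (adjusted p = 0.439). Nor were the genes of the matrix chaperonin, Hspd1 (log2 change -0.30, adjusted p = 0.262) and Hspe1 (0.37, adjusted p = 0.167, but 0.0386 after quantile normalization and 0.0346 without oligomycin replicate 2).

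Of 8 genes of the MICOS complex, which shapes cristae and contacts SAM, and its partners, 1 fell, 1 rose and 6 were not called (against 30.2% called of all genes tested). Immt, the core of MICOS, fell from 58.6 ± 2.58 to 39.4 ± 3.98 FPKM (log2 change -0.56, adjusted p = 0.00817). The subunit gene 2410015M20Rik rose (log2 change 0.45, adjusted p = 0.0472). Of 12 genes of outer membrane insertion and cytosolic escort 3 fell, 0 rose and 9 were not called (against 30.2% called and 16.1% called lower of all genes tested). Mtch1, an outer membrane insertase, fell from 47.2 ± 3.48 to 24.0 ± 0.838 FPKM (log2 change -0.95, adjusted p = 0.000537). Hsp90aa1, a chaperone that hands precursors to Tomm70, and Stip1, which links Hsp70 to Hsp90, fell as well (log2 changes -0.64 and -0.67, adjusted p = 0.0155 and 0.00974).

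Of 17 substrates and partners of the Chchd4 relay, 3 fell, 3 rose and 11 were not called (against 30.2% called of all genes tested). Fitted changes were negative for 10 and positive for 7, with a median of -0.28, against -0.0044 over all genes tested. The medians of the other partner lists were 0.20 (matrix folding and processing), 0.018 (MICOS and partners) and -0.18 (outer membrane insertion and cytosolic escort). Aifm1, which holds Chchd4 at the inner membrane, fell from 23.5 ± 2.42 to 17.0 ± 2.34 FPKM (log2 change -0.45, adjusted p = 0.0359). Cox6b1, a subunit of cytochrome c oxidase, fell too (log2 change -0.45, adjusted p = 0.0379), as did 2310061C15Rik, now named Cmc2, which acts in the assembly of that oxidase (log2 change -0.54, adjusted p = 0.0103). Chchd10, a twin-CX9C protein of the intermembrane space, rose 2.89-fold, from 50.4, 36.8 and 28.4 FPKM with DMSO to 139.5, 109.5 and 85.6 with oligomycin, without overlap (log2 change 1.52, SE 0.23, adjusted p = 0.00224). Chchd7 and Triap1 rose by less (log2 changes 0.54 and 0.34, adjusted p = 0.0299 and 0.0450). Of these called partners, Mtch1, Immt, Stip1, Chchd10 and Cmc2 were called in each alternative run, the fits without 1 library included. Each of the others was lost in at least 1 fit without a library, with adjusted p up to 0.168 (Triap1 without DMSO replicate 3). Some calls were lost with no library left out. Quantile normalization lost Aifm1, Cox6b1 and Immp2l (adjusted p = 0.0528, 0.0659 and 0.0503). Scaling without small RNA rows lost Aifm1 and Cox6b1 (adjusted p = 0.0741 and 0.0558). The fit without an intensity trend lost Dnaja3, Triap1 and 2410015M20Rik (adjusted p = 0.0625, 0.0576 and 0.0539).

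**Figure D5:**
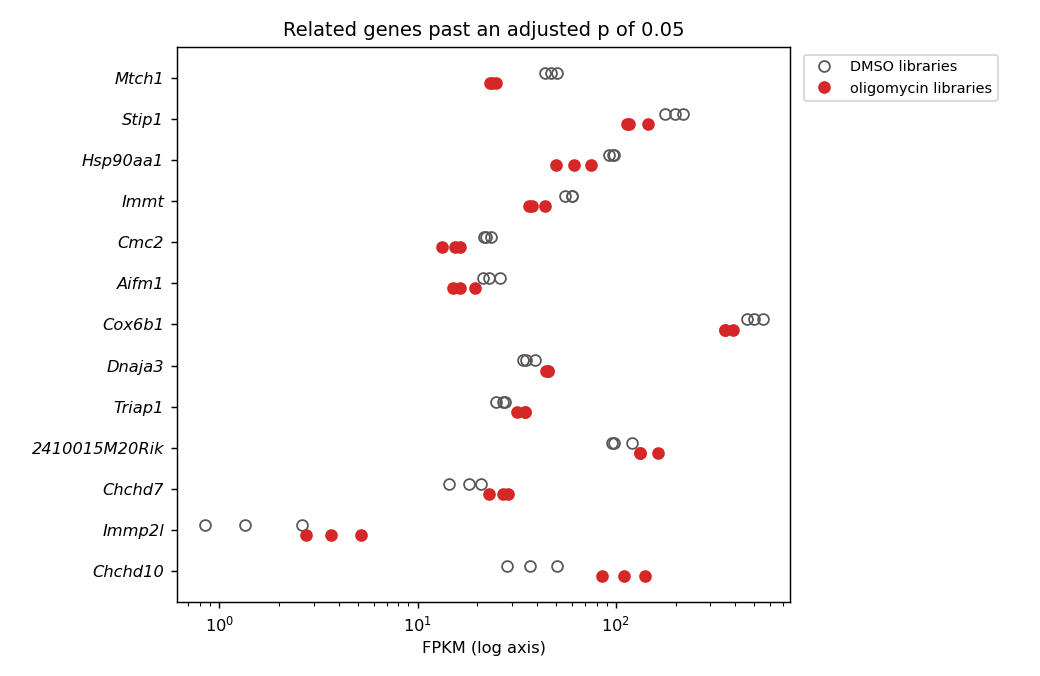
FPKM of the partner genes with an adjusted p under 0.05, on a log axis, with open circles for the 3 DMSO libraries and filled circles for the 3 oligomycin libraries. Mtch1 lies lowest relative to DMSO, at 23.3 to 24.9 FPKM against 43.8 to 50.8, and Chchd10 highest, at 85.6 to 139.5 against 28.4 to 50.4.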

How the data were processed

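Transcript levels of 6 mouse Th17 libraries, 3 per group, were analysed. The deposited values are FPKM per gene and library, per the file headers. The submitters' processing notes list the build GRCm38 (mm10), the aligner TopHat2 (2.1.0) and from the Cufflinks family the programs Cuffdiff (2.2.1.3), Cuffnorm (2.2.1.1) and Cufflinks (2.2.1.0). For the annotation, strand, filters and handling of reads with several matches, nothing is given in the sources used here. Columns carry the group and a number from 1 to 3 that is in no sample title, so each was assigned to its group only, and replicate numbers are column numbers. Depth is unknown, and FPKM allow no count model.

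Rows with at least 1 FPKM in at least 3 libraries (9986 of 10041) entered limma 3.58.1 under R 4.3.3 on the log2(FPKM + 1) scale, with group as the only term, an intensity trend and Benjamini-Hochberg adjustment over all 9986, and called at an adjusted p under 0.05. Errors are SD over 3 libraries or the SE of the fit. The procedure was tested on simulated data. All 34 genes of the rule are named; of the partner lists, called genes and Hspa9, Hspd1, Hspe1 and Aifm1. The members and lists were chosen with earlier results of these data known. Alternatives covered the pseudocount, filter, scaling, variance model, rows sharing a locus and each library left out. Reference transcripts (GENCODE M21) were compared with BLAST 2.17.0. Promoters and motifs come from RefSeq. The neighbours of import genes and the cell markers lie outside the rule for named genes and were named after their values were seen.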

Additional observations from a re-analysis of the deposited data

How the results depend on the processing

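The count of import genes called lower was 2 in most alternatives, 1 with a minimum of 5 FPKM, where Pam16 and Timm23 were not tested, and 0 to 9 when 1 library was left out. The count called higher was 1, or 2 after scaling to the FPKM sum without small RNA rows, and 0 to 1 without 1 library. That scaling moved the median of all genes tested to 0.10, and relative to it the import genes' median was -0.14 (-0.15 as deposited, quantile normalization -0.07). The import genes' median ran from -0.20 to -0.09 without 1 library. Negative changes numbered 26 of 34, 19 after quantile normalization and 20 after the scaling without small RNA rows. Quantile normalization turned the sign of Chchd4 (0.10), Pmpcb (0.11), Timm44 (0.10), Timm8b (0.0039), Tomm22 (0.013), Tomm5 (0.013) and Tomm7 (0.14). The other scaling turned Chchd4 (0.10), Oxa1l (0.039), Pmpcb (0.10), Timm22 (0.067), Timm44 (0.10) and Tomm7 (0.066). Without 1 library the sign changed for Pmpcb (-0.11 to 0.12), Chchd4 (-0.14 to 0.071), Mipep (-0.14 to 0.17), Timm44 (-0.051 to 0.022), Timm10 (-0.059 to 0.21), Tomm20 (-0.076 to 0.17), Oxa1l (-0.16 to 0.058) and Tomm7 (-0.19 to 0.082). All of these were uncalled in every fit. Tomm40 was called in the fit without rows of a shared locus (adjusted p = 0.0447), and Pmpca was then not tested. The cause was not tested. The titles give each DMSO sample and 1 oligomycin sample a shared number. No paired analysis was possible because these title numbers are on no column of the table, and the column numbers are not tied to them. Depth is unknown, so counting error cannot be given.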
